A study of Mus musculus with 16 samples.

Results

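Copying the genome in S phase needs a set of proteins that most resting cells hold at low levels. The genes described here are 43 genes for that machinery, from the origin-loading factors to the enzymes that supply deoxynucleotides and the cyclins that open S phase. A gene was taken from probe sets whose annotation names that gene alone, and 42 of the 43 had 1 or more (92 probe sets in all, out of 18193 named genes). Chaf1a was not listed with a probe set of its own. Each gene was read from 1 probe set, the one whose mean over the 16 arrays was highest, a choice that uses no difference between groups.

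The arrays cover 3 groups of C57BL/6 mice. Emu-xbp-1s mice carry a transgene in which the immunoglobulin VH promoter and Emu enhancer drive the spliced form of XBP-1, together with a farnesylated eGFP. These elements act throughout B cell development and also in some T cells. The groups are B220+ splenic B cells of wild-type (non-transgenic) mice at 20 weeks (n = 5), B220+ splenic B cells of Emu-xbp-1s mice at 20 weeks (n = 5), and Emu-xbp-1s MM, multiple myeloma that arose in the transgenic mice (n = 6). B cells were taken with magnetic beads, whereas RNA of the MM samples came from myeloma tumors, for which the methods state no cell selection. The age of each MM mouse profiled and the founder line of each mouse are not given in the sources used here. The comparison of the B cells asks what differs in transgenic mice at 20 weeks, and those of the MM samples ask what differs in the tumors. The study saw a serum M spike in most transgenic mice, in some already at 20 weeks, so that age may not precede all change.

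Replication starts at origins, where the origin recognition complex and the loading factors Cdc6 and Cdt1 place the Mcm2 to Mcm7 ring on DNA in G1, and geminin blocks Cdt1 afterwards. Cdc45 and the GINS complex turn the ring into an active helicase, DNA polymerases alpha, delta and epsilon copy the strands, and PCNA, loaded by replication factor C, holds the polymerases on DNA. E2F factors, freed when cyclin D and cyclin E kinases phosphorylate the retinoblastoma protein, switch on many of these genes as cells pass from G1 to S. Mature splenic B cells are mostly out of cycle, while germinal centre B cells, plasmablasts and the early precursors of red cells and neutrophils divide quickly.

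Since E2F binding is a known feature of many of these promoters, the letters of such sites are shown first. In RefSeq promoter windows of 250 bases before to 50 after the start (GRCm38.p6), 35 members had 42 windows. The motifs TTTCCCGC, TTTCGCGC, TTTGCCGC and TTTGGCGC, read on both strands, were present in 14 of the 42 windows (33.3%), against 2.26% of all 32851 windows. The motif CCAAT, bound by NF-Y, was in 59.5% of the members' windows and 37.4% of all windows on either strand. The stretches below lie upstream of a RefSeq start in Mcm5 and Mcm6, subunits of the ring, in Cdc6 and Uhrf1, which were higher in MM, and in Pola1, the catalytic subunit of polymerase alpha. For Cdc6, Uhrf1 and Pola1 that start is an inner one, and the stretch lies within the RefSeq coordinates of the gene. Each is written 5′ to 3′ on the strand of the gene, with the matches in capitals. In Mcm6 and Mcm5 a match on one strand overlaps a match on the other.
Mcm6 (chr1:128359736-128359825, minus strand): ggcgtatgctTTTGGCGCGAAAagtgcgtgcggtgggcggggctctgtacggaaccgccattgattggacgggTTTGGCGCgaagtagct
Mcm5 (chr8:75109339-75109388, plus strand): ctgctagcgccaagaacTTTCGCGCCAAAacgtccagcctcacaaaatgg
Cdc6 (chr11:98907991-98908040, plus strand): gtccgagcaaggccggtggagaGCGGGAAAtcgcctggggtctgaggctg
Pola1 (chrX:93632266-93632315, minus strand): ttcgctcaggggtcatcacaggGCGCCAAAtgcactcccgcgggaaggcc
Uhrf1 (chr17:56304108-56304157, plus strand): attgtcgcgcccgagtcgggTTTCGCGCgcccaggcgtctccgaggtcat
A match of letters is a description of the sequence and was not tested as a binding site.

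Values are intensities on a linear scale, and differences are log2 ratios after values under 50 were raised to 50. A probe set was tested in a comparison where it exceeded 100 on more than 20% of the arrays, with limma across all probe sets, and a difference passed at an adjusted p (Benjamini-Hochberg) under 0.01, two-sided. In bulk RNA, fewer dividing cells and less of a transcript in each dividing cell cannot be told apart.

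Other cells were present in some samples. The mean log2 intensity of 8 T cell markers was 6.31 to 6.51 in wild-type B cells and 9.15 to 9.60 in Emu-xbp-1s B cells, with all 8 higher past the threshold. Markers of other blood cells differed as well between Emu-xbp-1s and wild-type B cells. Neutrophil means were 8.43 to 10.51 against 6.44 to 7.01 (5 of 8 markers tested passed), NK cell means 7.97 to 8.71 against 6.93 to 7.27 (6 of 9), erythroid means 6.92 to 8.74 against 6.00 to 6.40 (1 of 4), and macrophage means, which overlapped, 9.09 to 10.36 against 8.81 to 9.32 (2 of 10). In MM, 7 erythroid markers had means of 9.94 and 10.71 in replicates 4 and 5 and at most 6.12 in the other MM samples, and 10 neutrophil markers had means of 12.18 and 11.37 in replicates 4 and 5 and at most 7.07 elsewhere in MM. The 7 germinal centre markers had means of 9.06 to 9.93 in MM replicates 1 to 3 and at most 6.76 in replicates 4 to 6. Between the same MM replicates, T cell means were 8.48 to 8.91 against 6.24 to 6.82. NK cell means were 7.72 to 8.03 against 6.81 to 7.16, and B cell means 9.30 to 9.71 against 6.14 to 8.34. Stromal and matrix genes stood at 9.03 to 10.25 in MM and at most 6.54 in B cells, and B cell markers at 6.14 to 9.71 in MM against 11.46 to 11.73 in wild-type B cells. Of 9 plasma cell markers tested in MM against wild-type B cells, none was higher and Irf4, a transcription factor of activated B cells and plasma cells, was lower. The part of these cells in the replication results was not tested.

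Between Emu-xbp-1s and wild-type B cells, no replication gene passed. Of 38 members tested, 0 were called in either direction, where 2.75% of 20596 probe sets were called higher and 0.481% lower. Before adjustment, 1 member was higher and 3 were lower with p under 0.05 (limma), where 10.6% and 9.47% of all probe sets were, so the members' shares were not above the background. The median log2 difference of the members was -0.01, against -0.05 over all probe sets tested. The members' mean log2 intensity was 7.93 to 8.32 on the wild-type arrays and 8.01 to 8.17 on the Emu-xbp-1s arrays, so the ranges overlapped. Cdc6, Gins1, Tyms and E2f1 were too low to be tested here.

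Single genes in the B cells showed where the spread lay. Rrm2, the small subunit of ribonucleotide reductase, was 205, 420, 819, 749 and 426 in wild-type B cells and 340, 298, 1296, 740 and 1234 in Emu-xbp-1s B cells. The groups overlapped, and the log2 difference of 0.48 had a 95% interval of -0.57 to 1.53. Chaf1b, a subunit of the chromatin assembly factor that deposits histones behind the fork, was 117 to 131 in wild-type and 139 to 171 in Emu-xbp-1s B cells. It was the only member whose 5 transgenic arrays all lay above the 5 wild-type arrays, a pattern that 5.6% of all probe sets tested showed, and its log2 difference of 0.30 (SE 0.11) did not pass (adjusted p = 0.150, limma).

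The 3 members lower at an unadjusted p were Rfc2 (log2 -0.50, adjusted p = 0.0805), Rfc3 (-0.60, 0.190) and Pold1 (-0.66, 0.202). Rfc2 and Rfc3 are subunits of the clamp loader, and Pold1 is the catalytic subunit of polymerase delta. Pold1 was 663 to 951 in wild-type B cells, 839 and 737 in Emu-xbp-1s replicates 1 and 2, and 298, 352 and 402 in replicates 3 to 5. This split was not seen at its second probe set, which read 424, 438, 589, 555 and 237 in Emu-xbp-1s and 322 to 476 in wild-type B cells (log2 0.08, adjusted p = 0.899). Replicates 3 to 5 were also lowest in B cell markers, with means of 10.05 to 10.52 against 11.20 and 11.33 in replicates 1 and 2. They were highest in erythroid markers (8.74, 7.26 and 7.81 against 6.95 and 6.92) and in NK cell markers (8.36, 8.29 and 8.71 against 8.02 and 7.97). The part of these cells in Pold1 was not tested.

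**Figure D1:**
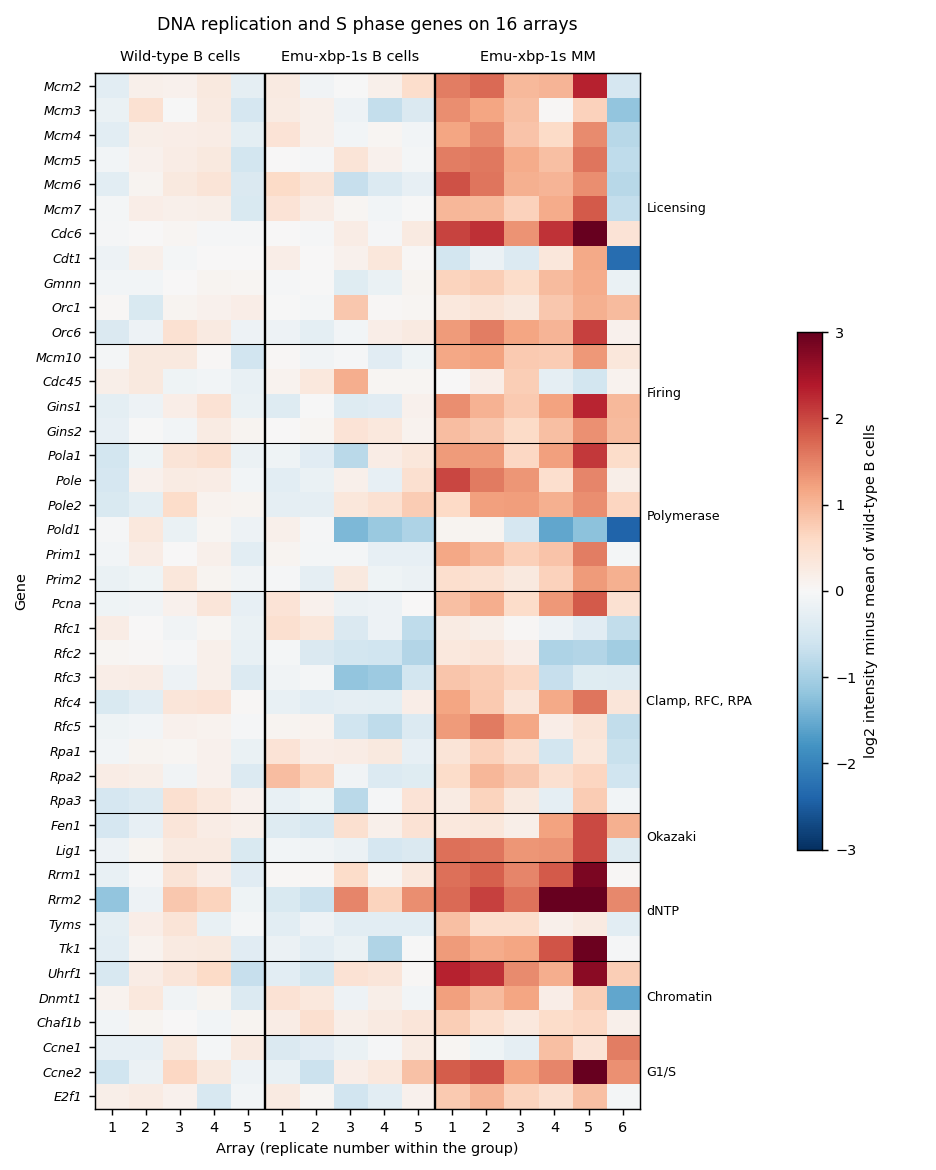
Each row is 1 of 42 replication genes, read at its probe set of highest mean and grouped by role, and each column an array; color is the log2 intensity (floor of 50) minus the mean of the 5 wild-type B cell arrays, with colors saturated beyond -3 and 3. The B cell arrays of both groups are pale, MM replicates 1 to 5 are mostly red, and MM replicate 6 is blue for Mcm2 to Mcm7, Cdt1, Pold1 and Dnmt1 but red for Ccne1, Prim2, Fen1 and Rrm2.

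In MM the fitted difference was above 0 for 36 of 41 members against Emu-xbp-1s B cells and for 37 of 41 against wild-type B cells, and few of these differences passed. Against Emu-xbp-1s B cells, 4 of 41 members tested rose (Gins1, Uhrf1, Ccne2 and Mcm10) and none fell, where 1.28% of 22194 probe sets were called higher. Against wild-type B cells, 8 of 41 rose (Rrm2, Cdc6, Ccne2, Uhrf1, Gins1, Pole2, Mcm10 and Gins2) and none fell, where 3.95% of 21894 probe sets were called higher. The members' median log2 difference was 0.81 and 0.85 in these comparisons, against 0.00 and -0.03 over all probe sets tested. With a threshold of 0.05 the counts were 18 and 22, where 4.32% and 8.75% of all probe sets were called higher. For 3 members the filter was met by MM values alone. Cdc6 and E2f1 in both comparisons, and Gins1 against Emu-xbp-1s B cells, had no array of the B cell group compared above 100. They were tested only because MM arrays exceeded it. Other members had some B cell arrays above 100, but too few to meet the filter without the MM arrays. These were Gins1 against wild-type B cells, Rfc3 against Emu-xbp-1s B cells, and Gins2, Ccne2 and Pole in both comparisons. The 2 comparisons share the MM arrays.

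Ranges were compared as well. All 6 MM arrays lay above all 5 Emu-xbp-1s arrays for 9 members, where 4.04% of all probe sets tested did so, and above all 5 wild-type arrays for 12 members, where 6.59% did. Every MM array exceeded all 10 B cell arrays for Mcm10, Cdc6, Gins1, Gins2, Pcna, Pola1, Uhrf1 and Ccne2. The share of all probe sets that did so was not counted, so this list has no background beside it. As given above, Cdc6, Gins1, Gins2 and Ccne2 met the filter of both comparisons only with the MM arrays.

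As over all probe sets, the number of members called changed when single arrays were left out. Without MM replicate 6 it became 17 against Emu-xbp-1s B cells and 24 against wild-type B cells, where 2.16% and 6.23% of all probe sets were then called higher. Against Emu-xbp-1s B cells it was 0 without Emu-xbp-1s replicate 1, 2, 3 or 4 or MM replicate 1, 1 without Emu-xbp-1s replicate 5 or MM replicate 2 or 4, and 2 without MM replicate 5. Over all probe sets, 285 were called higher with every array and 98 to 174 without 1 Emu-xbp-1s array. Without MM replicate 1, 2, 4 or 5 these were 136, 146, 170 and 259. Against wild-type B cells the number of members called was 2 without wild-type replicate 1, 2 or 5, 3 without wild-type replicate 4 or MM replicate 2, and 4 without wild-type replicate 3 or MM replicate 1 or 4. Over all probe sets, 864 were called higher with every array and 415 to 498 without 1 wild-type array. Without MM replicate 1, 2 or 4 these were 650, 627 and 618. Without MM replicates 4 and 5 together 1 and 5 members were called, where 280 and 898 of all probe sets were called higher.

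**Figure D2:**
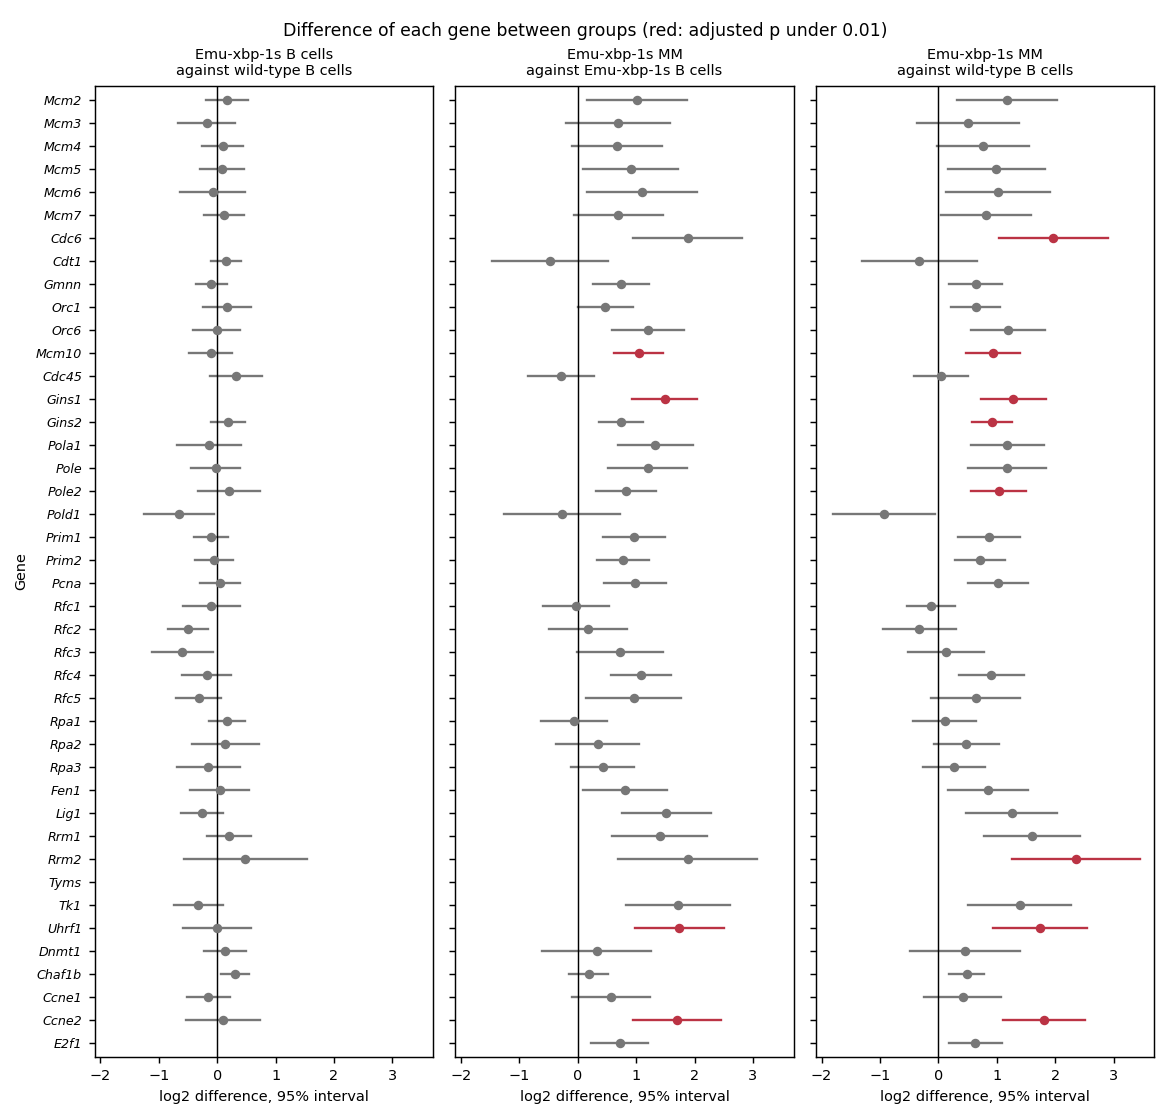
Points are log2 differences of each tested gene in the 3 comparisons and lines their 95% intervals, with red for an adjusted p under 0.01. No gene is red in the B cell comparison, 4 are red in MM against Emu-xbp-1s B cells and 8 in MM against wild-type B cells, and most intervals in MM lie to the right of 0.

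Among the 11 licensing genes, Cdc6 alone rose. This ATPase brings the Mcm ring to the origin. Its intensity was 40, 52, 53, 48 and 35 in wild-type B cells, 51, 31, 59, 32 and 61 in Emu-xbp-1s B cells, and 209, 231, 130, 228, 647 and 68 in MM. All 6 MM arrays lay above every B cell array, with replicate 6 nearest to them. With 3 of 5 wild-type arrays at or under 50, the difference is a bound: at least 3.91-fold higher in MM than in wild-type B cells (adjusted p = 0.00725, limma). Against Emu-xbp-1s B cells, where 2 arrays were at or under 50, the log2 difference of 1.88 (SE 0.43) did not pass (adjusted p = 0.0175). The call against wild-type B cells was lost under 12 of 23 alternatives, among them a floor of 100, no filter on low values and each fit without 1 of the wild-type arrays.

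The Mcm ring genes had high MM levels on all but 1 array. Mcm5 was 457 to 816 in wild-type and 639 to 865 in Emu-xbp-1s B cells. In MM it was 1931, 1981, 1433, 1247 and 2027 in replicates 1 to 5 and 392 in replicate 6, below every B cell array. The log2 difference from wild-type B cells was 0.99 (SE 0.38) and did not pass (adjusted p = 0.0858).

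Mcm6 also had replicate 6 lowest, with 3398, 2755, 1889, 1847 and 2371 in MM replicates 1 to 5 and 508 in replicate 6, against 566 to 1351 in the B cells of both groups. Mcm2, Mcm4 and Mcm7 likewise had MM replicates 1 to 5 above every B cell array and replicate 6 below every one. At the other probe sets of these genes that exceeded 100 on every array, replicates 1 to 5 again lay above every B cell array, while replicate 6 was below them for Mcm4, Mcm6 and all but 1 of those of Mcm7, and within their range for that one, Mcm2 and Mcm5. Mcm3 differed at its probe set of highest mean, with 341 in MM replicate 4, inside the B cell range of 203 to 452. Its other probe sets were divided. MM replicates 1 to 5 lay above every B cell array where replicate 4 read 356 (B cells at most 344) and 203 (at most 162). They did not at the probe sets where B cells reached 250 and 366. Without MM replicate 6, Mcm2, Mcm4, Mcm5 and Mcm6 passed in both comparisons and Mcm7 passed against wild-type B cells.

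Of the remaining licensing genes, Orc6, a subunit of the origin recognition complex, had a log2 difference of 1.20 from Emu-xbp-1s B cells (adjusted p = 0.0200). Geminin (Gmnn) was 323 in MM replicate 6 and 541 to 806 in the other MM samples, against 290 to 395 in B cells. Cdt1, which geminin inhibits, went another way at its probe set of highest mean. It was 682 to 960 in B cells, 513, 669 and 564 in MM replicates 1 to 3, 958 and 1647 in replicates 4 and 5, and 155 in replicate 6. There it was below every B cell array in 4 of the 6 tumors, and its log2 difference from wild-type B cells of -0.33 had a 95% interval of -1.31 to 0.66. The other probe set tested read 165 to 558 in B cells and 414, 426, 329, 483, 594 and 115 in MM, with only replicate 6 below every B cell array (log2 -0.15, adjusted p = 0.797).

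Of the 4 helicase activators, 2 rose against Emu-xbp-1s B cells and 3 against wild-type B cells. Gins1 (Psf1), a subunit of GINS, was 68, 76, 96, 113 and 72 in wild-type B cells, 64, 83, 64, 65 and 91 in Emu-xbp-1s B cells, and 221, 172, 145, 191, 409 and 164 in MM. No MM array overlapped the B cells, replicate 6 included. It rose 2.80-fold against Emu-xbp-1s B cells (log2 1.49, SE 0.25, adjusted p = 0.00424) and 2.44-fold against wild-type B cells (log2 1.28, SE 0.26, adjusted p = 0.00452). These calls were lost under 7 and 8 of 22 alternatives, no filter on low values among them in each.

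Gins2 (Psf2), its partner, was 75 to 106 in wild-type B cells, 91 to 120 in Emu-xbp-1s B cells, and 171, 156, 135, 167, 234 and 172 in MM. It rose 1.89-fold against wild-type B cells (log2 0.92, SE 0.16, adjusted p = 0.00213, limma). It passed there under each of the 23 alternative settings, with adjusted p of 0.000390 to 0.00872. The setting with a threshold of 0.05 could not have lost it. Against Emu-xbp-1s B cells the difference of 0.74 did not pass (adjusted p = 0.0186). The second Gins2 probe set passed in neither comparison (log2 0.88 and 0.82, adjusted p = 0.0145 and 0.0103 against Emu-xbp-1s and wild-type B cells, limma). There MM replicate 3 (79.8) lay within the B cell range of 37.7 to 87.7.

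Mcm10, which acts with Cdc45 and GINS when origins fire, was 94 to 171 in wild-type and 111 to 144 in Emu-xbp-1s B cells, and 313, 322, 242, 238, 343 and 178 in MM. It rose 2.06-fold against Emu-xbp-1s B cells (adjusted p = 0.00645) and 1.91-fold against wild-type B cells (adjusted p = 0.00937). MM replicate 6 was the lowest tumor here and still above the B cells. The calls were lost under 11 and 14 of 22 alternatives, among them each fit without 1 array of the B cell group compared.

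For Cdc45, the cofactor that completes the active helicase, the answer depended on the probe set. The probe set of highest mean was 172 to 245 in wild-type B cells, 209 to 430 in Emu-xbp-1s B cells and 202, 230, 335, 168, 138 and 218 in MM. The groups overlapped, with log2 differences of -0.29 (adjusted p = 0.511) and 0.04 (adjusted p = 0.922) against Emu-xbp-1s and wild-type B cells.

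The other Cdc45 probe set was 29.7, 33.4, 97.5, 73.4 and 35.2 in wild-type B cells, 29.1, 39.4, 64.7, 63.2 and 76.7 in Emu-xbp-1s B cells, and 227, 264, 176, 226, 382 and 90.2 in MM. It passed in both comparisons, with a log2 difference of 1.79 (SE 0.31, adjusted p = 0.00436) from Emu-xbp-1s B cells. From wild-type B cells, with 3 of 5 arrays under 50, the log2 difference was at least 1.76 (adjusted p = 0.00315). No B cell array exceeded 100 here either, so this probe set was tested only because MM arrays did. Which of these probe sets reads Cdc45 better was not tested.

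Among the 6 polymerase and primase genes, Pole2 rose against wild-type B cells. It encodes the second subunit of polymerase epsilon, the leading strand enzyme. It was 153, 173, 310, 225 and 223 in wild-type B cells, 174, 174, 267, 291 and 359 in Emu-xbp-1s B cells, and 318, 492, 503, 441, 550 and 330 in MM. The MM arrays cleared all wild-type arrays by a small margin (318 against 310) and overlapped those of Emu-xbp-1s B cells. The difference was 2.04-fold from wild-type B cells (adjusted p = 0.00582) and 1.77-fold from Emu-xbp-1s B cells, where it did not pass (adjusted p = 0.0465). The call against wild-type B cells was lost under 10 of 23 alternatives.

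At their probe sets of highest mean, Pola1, Pole, Prim1 and Prim2 had log2 differences of 0.72 to 1.32 in the MM comparisons, all with an adjusted p under 0.05 and above 0.01. Prim1 and Prim2 are the subunits of primase, which lays the RNA primers. A second Prim2 probe set passed against wild-type B cells (log2 1.09, adjusted p = 0.00394).

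Pold1 had the lowest log2 difference of the members against wild-type B cells. It was 803, 801 and 534 in MM replicates 1 to 3 and 257, 323 and 144 in replicates 4 to 6, against 663 to 951 in wild-type B cells. The log2 difference of -0.93 (SE 0.40) did not pass (adjusted p = 0.121), and its second probe set gave -1.06 (adjusted p = 0.117).

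**Figure D3:**
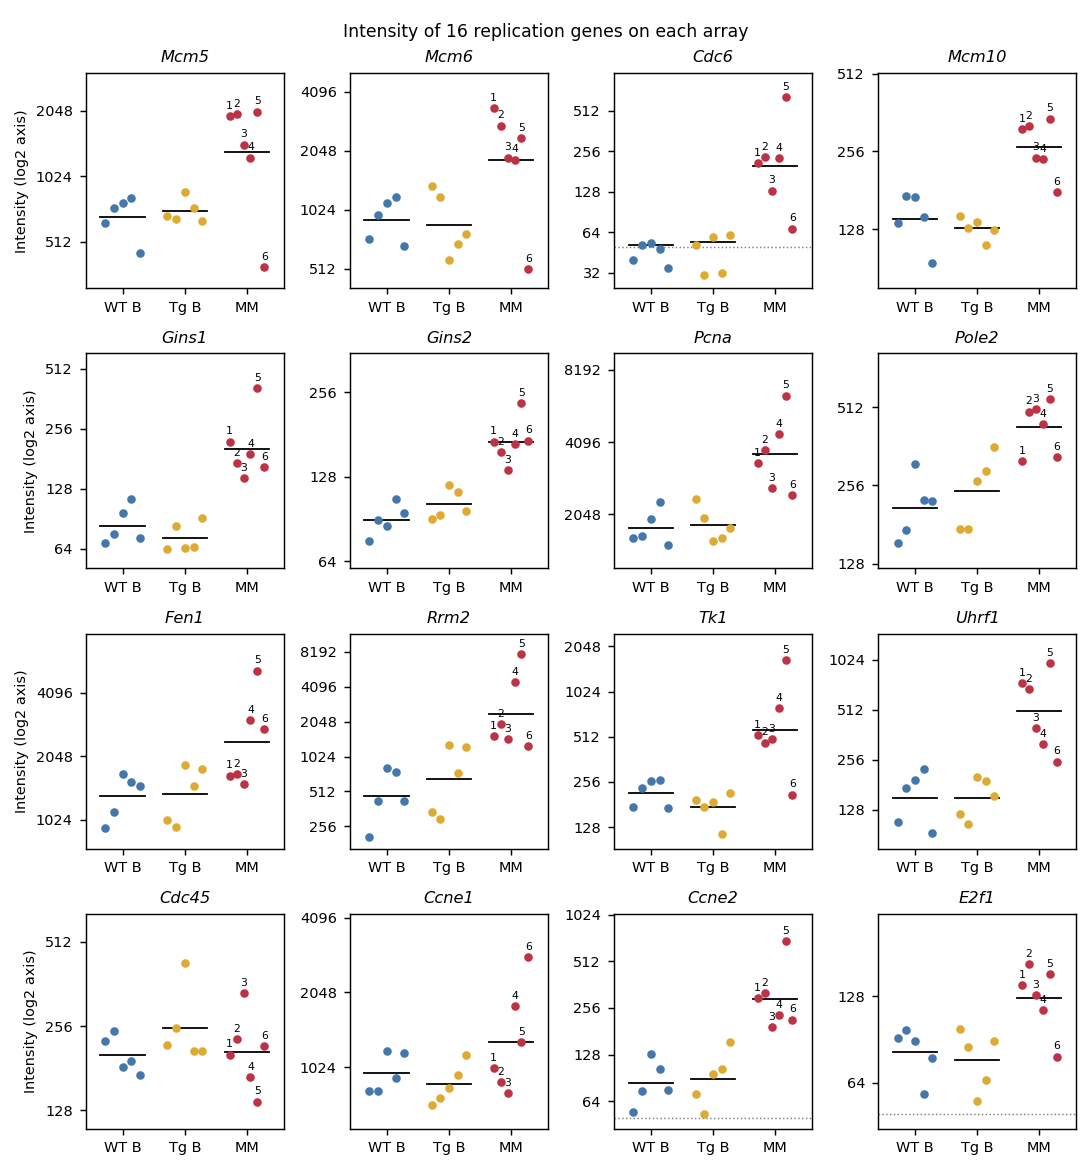
Intensity of 16 genes on every array on a log2 axis, with MM points labelled by replicate number, bars at the mean of log2 values after the floor, and a dotted line at 50. Gins1, Gins2, Cdc6, Uhrf1 and Ccne2 show all MM points above both B cell groups, Mcm5 and Mcm6 show replicate 6 alone below them, and Ccne1, at the 1 probe set plotted, shows replicate 6 highest.

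Of the 9 genes for the clamp, the clamp loader and the single-strand binding protein, none passed in either MM comparison. Pcna, the sliding clamp, came closest. It was 1522 to 2299 in wild-type B cells, 1583 to 2363 in Emu-xbp-1s B cells, and 3348, 3803, 2641, 4424, 6392 and 2467 in MM. Every MM array lay above every B cell array, and the log2 difference of 1.02 (SE 0.24) from wild-type B cells had an adjusted p of 0.0101.

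The clamp loader subunits did not follow a single pattern. Rfc4 was 259 to 609 in MM and 162 to 231 in Emu-xbp-1s B cells, with a log2 difference of 1.09 (adjusted p = 0.0139, limma). Wild-type B cells, at 146 to 265, overlapped MM replicates 3 and 6 (log2 0.91, adjusted p = 0.0247). The second Rfc4 probe set gave 0.60 against Emu-xbp-1s B cells (adjusted p = 0.229). Rfc2 was 1107, 1154 and 1020 in MM replicates 1 to 3 and 474, 490 and 434 in replicates 4 to 6, against 770 to 1001 in wild-type B cells. Rfc3 and Rfc5 were also higher on every one of MM replicates 1 to 3 than on replicates 4 to 6. The means of germinal centre, T cell, NK cell and B cell markers showed the same split, and no link was tested. Rfc1 and the binding protein genes Rpa1, Rpa2 and Rpa3 had log2 differences of -0.13 to 0.48, none past the threshold.

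Of the genes that join Okazaki fragments, Fen1, the flap nuclease, was 931 to 1695 in wild-type B cells and 945 to 1854 in Emu-xbp-1s B cells. In MM it was 1658, 1682 and 1504 in replicates 1 to 3, within the B cell range, and 3046, 5234 and 2765 in replicates 4 to 6. The log2 difference from wild-type B cells was 0.85 (SE 0.32, adjusted p = 0.0731). Its second probe set showed another order: 136 to 239 in B cells of both groups, 531, 517, 351, 520 and 906 in MM replicates 1 to 5, all above the B cells, and 178 in replicate 6, inside their range. The log2 differences there were 1.39 and 1.08 against Emu-xbp-1s and wild-type B cells (adjusted p = 0.0252 and 0.0346). Lig1, the ligase that seals the fragments, was 195 to 326 in wild-type B cells, and 848, 822, 669, 686, 1055 and 207 in MM, with a log2 difference of 1.26 (adjusted p = 0.0257).

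Of the 3 deoxynucleotide genes tested, 1 rose, and only against wild-type B cells. Rrm2, whose B cell values are given above, was 1530, 1950, 1451, 4484, 7882 and 1270 in MM, all above the wild-type maximum of 819. It rose 5.14-fold against wild-type B cells (log2 2.36, SE 0.51, adjusted p = 0.00664), and 2 of its 3 probe sets passed. Against Emu-xbp-1s B cells, whose replicate 3 (1296) exceeded MM replicate 6, the difference was 3.68-fold and did not pass (adjusted p = 0.0464). The highest 2 values were from the MM samples with the erythroid and neutrophil markers. Without those 2 samples together Rrm2 still passed against wild-type B cells, but the call was lost under 7 of 23 alternatives (without MM replicate 2 or 4, without wild-type replicate 1, 2, 4 or 5, and with no filter on low values).

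Rrm1, the large subunit, was 244 to 405 in wild-type B cells and 967, 1061, 853, 1097, 2200 and 317 in MM (log2 1.60, adjusted p = 0.0109). Tk1, the thymidine kinase of S phase, was 528, 468, 493, 797, 1662 and 211 in MM and 115 to 265 in the B cells of both groups, with log2 differences of 1.71 and 1.39 that did not pass. Tyms, thymidylate synthase, was at most 116 on any array. It was 50.3 to 81.6 in wild-type B cells, 17.7 to 55.9 in Emu-xbp-1s B cells and 48.3 to 116 in MM, and it was tested in none of the comparisons.

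Among the genes that copy chromatin, Uhrf1, which reads half-methylated DNA and brings in Dnmt1, rose in both comparisons. It was 108, 174, 192, 224 and 93.4 in wild-type B cells, 121, 105, 201, 192 and 154 in Emu-xbp-1s B cells, and 740, 683, 398, 319, 980 and 250 in MM. The lowest MM array, replicate 6, was above the highest B cell array. The rise was 3.34-fold against each B cell group, with adjusted p of 0.00963 and 0.00636 against Emu-xbp-1s and wild-type B cells. These calls were lost under 17 and 11 of 23 alternatives, among them each fit without 1 array of the B cell group compared. Its second probe set did not pass in either (log2 1.29 and 0.49, adjusted p = 0.0694 and 0.356), and there MM replicate 6 (118) lay within the B cell range.

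Dnmt1, the methyltransferase that restores methylation after replication, was 1449, 1189, 1382, 705 and 1024 in MM replicates 1 to 5 and 209 in replicate 6, against 459 to 825 in B cells. Replicate 6 was the lowest of the 16 arrays at each of its 3 probe sets. Chaf1b was 138 to 208 in MM, with log2 differences of 0.18 and 0.48 that did not pass.

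The G1/S regulators differed from each other. Ccne2, cyclin E2, was 54.7 to 128 in wild-type B cells, 53.0 to 153 in Emu-xbp-1s B cells, and 296, 318, 192, 230, 694 and 215 in MM. It rose 3.26-fold against Emu-xbp-1s B cells (log2 1.71, SE 0.35, adjusted p = 0.00995) and 3.50-fold against wild-type B cells (log2 1.81, SE 0.32, adjusted p = 0.00256). Against wild-type B cells it passed under 21 of 23 alternatives, and against Emu-xbp-1s B cells under 5 of 23. Each count includes the threshold of 0.05, under which the call could not be lost.

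Ccne1, cyclin E1, was 818 to 1193 in wild-type B cells and 723 to 1150 in Emu-xbp-1s B cells. In MM it was 1013, 889 and 808 in replicates 1 to 3, 1809 and 1291 in replicates 4 and 5, and 2835 in replicate 6. The log2 difference from wild-type B cells was 0.42 (SE 0.30) and did not pass (adjusted p = 0.352). Its second probe set put replicate 6 lowest of the 16 arrays, at 67.3, with 123, 187, 153, 272 and 392 in MM replicates 1 to 5 and 69.3 to 148 in B cells. The differences there did not pass either (log2 0.79 and 0.69, adjusted p = 0.223 and 0.208 against Emu-xbp-1s and wild-type B cells), and which probe set reads Ccne1 better was not tested. E2f1, the transcription factor of the G1 to S step, was 58.8 to 97.5 in wild-type B cells, 55.3 to 98.2 in Emu-xbp-1s B cells and 140, 166, 129, 115, 153 and 79.0 in MM. MM replicates 1 to 5 lay above every B cell array and replicate 6 did not, and the log2 difference of 0.63 (SE 0.21) did not pass (adjusted p = 0.0484).

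Read array by array, 1 tumor stood apart. Of 41 members above 100 on more than 20% of all arrays, the number above all 10 B cell arrays was 30, 34, 29, 30 and 34 in MM replicates 1 to 5. The shares of all 21863 such probe sets were 19.8%, 20.3%, 21.8%, 21.7% and 19.5%. In MM replicate 6 it was 12 of 41, with a share of 21.9% over all probe sets, and 12 other members were below all 10 B cell arrays, where 36.6% of all probe sets were. For 23 members all of MM replicates 1 to 5 were above every B cell array, a grouping chosen after the values were seen. The share of all probe sets that did so was not counted, so the 23 cannot be set against a background.

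Replicate 5 was the highest tumor for 25 of the 41 members, where it was highest for 13.3% of all probe sets. Replicate 6 was the lowest for 29 members, where it was lowest for 33.2%. The members' mean log2 intensity was 9.13, 9.16, 8.86, 8.86 and 9.46 in MM replicates 1 to 5 and 8.07 in replicate 6, within the B cell range of 7.93 to 8.32. Neither germinal centre, erythroid nor neutrophil markers were raised in replicate 6, whose stromal mean of 9.03 was the lowest of the tumors.

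**Figure D4:**
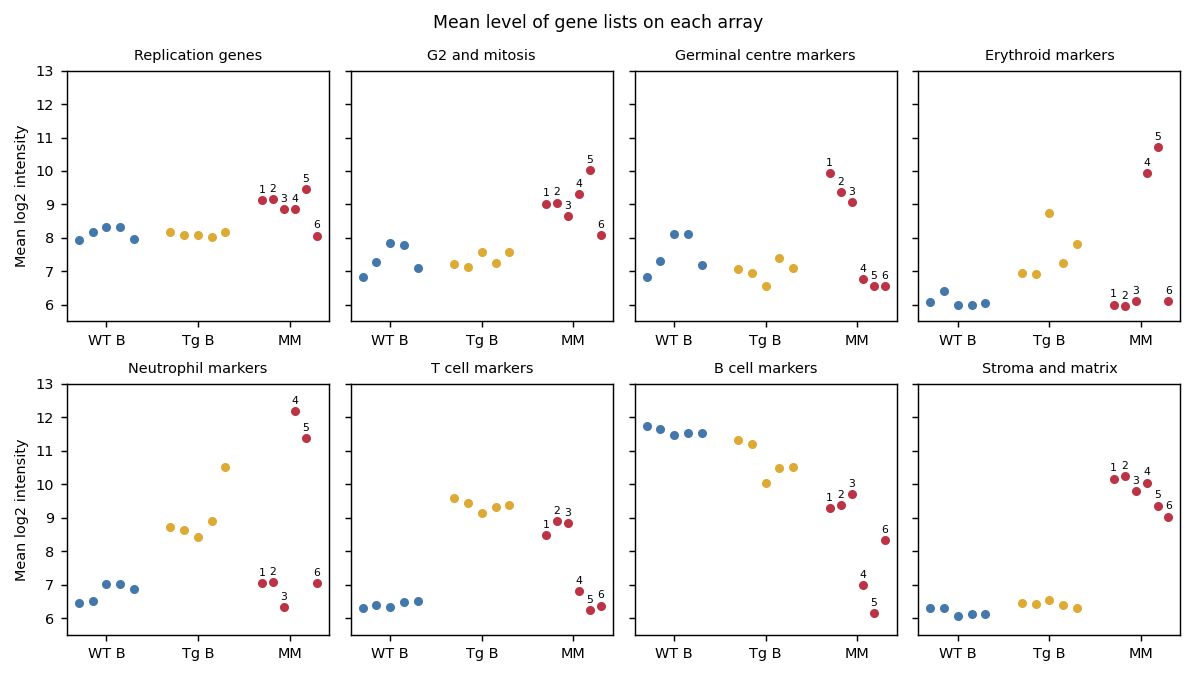
Mean log2 intensity (floor of 50) of 8 gene lists on each array, with MM points labelled by replicate. The replication and mitosis lists have MM replicate 5 highest and replicate 6 lowest of the tumors. Germinal centre, T cell and B cell markers are higher in MM replicates 1 to 3 than in replicates 4 to 6. Erythroid and neutrophil markers mark replicates 4 and 5.

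Genes of neighboring steps gave the setting. Of 40 other replication genes tested, 3 rose against Emu-xbp-1s B cells (Tipin, a protector of stalled forks, Clspn, a mediator of the replication checkpoint, and Asf1b, a histone chaperone) and none fell. Against wild-type B cells 7 rose, Ccna2 (cyclin A2, 4.29-fold), Asf1b (2.96-fold) and Tipin (2.93-fold) with the largest changes, and 1 fell. That one was Pold4, the small subunit of polymerase delta, at a log2 difference of -1.64 (SE 0.32, adjusted p = 0.00397), 1006 to 1321 in wild-type B cells and 140 to 513 in MM. Pold4 and Pold1 encode subunits of the same enzyme, and Pold4 was 315, 429 and 709 in Emu-xbp-1s replicates 3 to 5 and 1017 and 893 in replicates 1 and 2, a split that Pold1 also had at the first of its probe sets and not at the second. In the B cell comparison 0 of 38 such genes passed, and an unadjusted p under 0.05 was reached by 2 that were higher and 3 that were lower (limma).

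Of 18 mitosis genes tested, 11 rose against Emu-xbp-1s B cells and 13 against wild-type B cells, and none fell, with medians of 1.91 and 1.89 on the log2 scale. The largest changes against Emu-xbp-1s B cells were in Kif11 (5.16-fold), Ccnb2 (4.98-fold), Cdk1 (4.77-fold) and Aurka (3.94-fold), which drive spindle assembly and entry into mitosis. Against wild-type B cells they were in Birc5 (5.11-fold), Cdk1 (5.10-fold), Ccnb2 (5.08-fold) and Kif11 (4.15-fold). In the B cell comparison none of 17 passed, and none had an unadjusted p under 0.05 (limma).

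Of the G1 genes, Ccnd1 (cyclin D1) rose 2.44-fold in Emu-xbp-1s against wild-type B cells (log2 1.28, SE 0.14, adjusted p = 0.000131), 209 to 311 against 85.8 to 118. It was the 1 gene of 15 in this list to pass there. In both MM comparisons 2 of 17 rose. Cdkn1a (p21), an inhibitor of cyclin kinases, was 3.84-fold and 4.05-fold higher than in Emu-xbp-1s and wild-type B cells, and Tfdp1, the partner of E2F factors, 2.84-fold and 2.86-fold. Cdkn1a was 709 and 541 in MM replicates 4 and 5 and 153 to 260 in the others.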

How the data were processed

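Total RNA of 16 samples, grouped by their titles, was hybridized to Affymetrix mouse arrays. The deposited table gives, for every array, a linear intensity of each probe set. To make it, the authors scaled the arrays in dChip against the one of median brightness and fitted its probe model, with mismatch subtracted from perfect match. Of 45101 probe sets, 34958 have 1 gene in the platform annotation (34754 matched to current symbols by gene identifier), 932 have several and 9211 are not listed. The 64 controls were left out. Intensities under 50 were set to 50. Each pair of groups was fitted with limma 3.58.1 (R 4.3.3, lmFit and eBayes) on probe sets above 100 on more than 20% of its arrays, adjusted over all of them by Benjamini-Hochberg, with a threshold of 0.01. No presence calls were used, and the SAM test of the methods was not run. The code was tested on simulated data. Tables were made with pandas 2.3.3 and numpy 2.4.6 in Python 3.11.15, and plots with matplotlib 3.10.9. The number of arrays limits the precision. The study describes the B cell arrays as 5 mice in each group. For MM the sources used here do not say whether each sample is a separate mouse, so p-values there rest on the variation among the arrays, which may be technical. Same-numbered Emu-xbp-1s and wild-type B cell arrays had correlated deviations from their group means (r across probe sets of 0.512, 0.527, 0.218, 0.176 and 0.512). Only for Emu-xbp-1s replicates 2 and 3 was the same-numbered wild-type array the closest. No pairs or blocks entered the main fits, and a replicate block was among the alternatives. The members, the lists and the rule for named genes were chosen with earlier results of these data known. By that rule the text names up to 4 called genes per role and comparison with the largest changes and 12 set genes (Mcm5, Cdc6, Cdc45, Pole2, Pcna, Fen1, Rrm2, Tyms, Uhrf1, Ccne1, Ccne2 and E2f1). Other members given with values were added after these were seen. Floors, filters, normalization, blocks and left-out arrays were varied. Promoter sequences are from RefSeq (GRCm38.p6).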

Additional observations from a re-analysis of the deposited data

Results flagged for a closer look

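Of 126 sets of values (a member in a group), 10 had 1 array far from the rest by Dixon's criterion, which chance gives in about 1 of 20 groups. In MM, 5 of these were the lowest value of replicate 6: Mcm5 at 392, Mcm6 at 508, Rpa2 at 125, Lig1 at 207 and Dnmt1 at 209. In Emu-xbp-1s B cells, replicate 3 was highest for Cdc45 at 430 and for Orc1 at 238, replicate 5 for Rfc4 at 231, and replicate 2 for Tyms at 55.9. The other Tyms values there (49.9, 26.8, 17.7 and 49.0) were all raised to 50 before the criterion was applied. That made them equal and fixed the outcome, so the Tyms flag comes from the floor. In wild-type B cells, replicate 2 was lowest for Orc1 at 99.2.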

How the results depend on the processing

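In Emu-xbp-1s against wild-type B cells, 0 members passed under every setting run, the replicate block included, and no member was called lower in any comparison under any setting run. In MM against Emu-xbp-1s B cells the 4 members higher became 2 with a floor of 16, 1 with a floor of 100, 2 with a pseudocount of 50, 0 with no filter on low values, 18 at a threshold of 0.05, 16 with all 3 groups in one fit, 2 with a gene's probe sets averaged, 1 without MM replicates 4 and 5, and 0 to 17 when 1 array was left out. In MM against wild-type B cells the 8 became 1 with no filter, 22 at 0.05, 17 with all groups in one fit, 5 without MM replicates 4 and 5, and 2 to 24 when 1 array was left out. The replicate block gave 8 and 11, in samples that share only a number: same-numbered MM arrays did not all deviate together with B cell arrays (r of -0.28 for replicate 3 against Emu-xbp-1s B cells). Over all probe sets, the number called higher moved too. Against Emu-xbp-1s B cells it went from 285 to 320 and 146 with floors of 16 and 100, and to 269 with the pseudocount. It was 111 of 45037 with no filter, 738 with all groups together, 149 of 9656 averaged genes and 247 with the block. Against wild-type B cells it went from 864 to 440 of 45037 with no filter, 1184 with all groups together and 903 with the block. The causes were not tested. The members' median log2 difference stayed between 0.71 and 1.00 against Emu-xbp-1s B cells and between 0.68 and 1.01 against wild-type B cells under all settings, and no called member changed sign.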
